A study of Homo sapiens with 12 samples.

Results

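Starvation of T47D cells for hormones lowered transcription of 239 genes, by a rule on size. In 58 of these the level changed by less than 0.25 on the log2 scale when estradiol was put back for 1 h. These 58 genes are described here. T47D is an estrogen receptor-positive human breast cancer cell line, and transcription was read by PRO-seq, in which polymerases at work on DNA extend their RNA in isolated nuclei and this nascent RNA is sequenced. Each gene's count was divided by the library total to give CPM, the count scaled to a common library total, averaged over the 2 libraries of a group, and 0.5 CPM was added. A gene was taken if its mean count over the 12 libraries was at least 50, if the log2 ratio of starved vehicle to complete vehicle was at most -0.8, and if the log2 ratio of starved estradiol to starved vehicle lay within 0.25 of 0. Of 60605 gene IDs in the count table, 14651 had the required mean count. Of the 239 starvation-lowered genes, 176 were raised by estradiol by at least 0.25, 5 were lowered by at least 0.25 and 58 met the last condition. The members were therefore chosen on the starved and complete vehicle libraries and on the starved estradiol libraries, and their values in those comparisons are a description, with no test.

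The 12 libraries formed 6 groups of 2, numbered 3 and 4 in each. The starved groups had been kept without hormones for 3 days and then received 1 nM estradiol or vehicle (0.1% DMSO by volume) for 1 h. The complete-medium groups, in medium with serum, received fulvestrant, raloxifene or tamoxifen at 100 nM, or the same vehicle, for 1 h after 3 days of growth. The protocol text covers complete medium only, so starvation rests on the names of the groups and on the design text, and the sources do not give how hormones were removed. The 2 raloxifene libraries had both the smallest total, 3682311 counts (library 4), and the largest, 7856803 (library 3). The labels do not state whether replicate libraries are separate cultures. The p-values therefore cover the spread between the libraries at hand, and that spread may be technical. Against the label of an epithelial, receptor-positive line, 9 of 10 luminal markers were over 1 CPM, with ESR1 at a mean of 1629.7 CPM, and they summed to between 3448.7 and 4515.8 CPM per library. Of 4 basal markers 2 were over 1 CPM, with a sum of 4.66 to 10.0 CPM. Of 8 stromal, endothelial and blood markers 5 were over 1 CPM, with a sum of 40.5 to 55.6 CPM and CD68 highest at 21.3 CPM. GREB1, an estrogen receptor target used here as a check of the hormone, was higher with estradiol than with starved vehicle by 2.22 ± 0.0548 on the log2 scale (edgeR's quasi-likelihood test, adjusted p = 2.1e-16).

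Estradiol activates estrogen receptor alpha, which binds DNA as a dimer and raises transcription at its direct targets within minutes. Serum and its hormones also drive breast cancer cells through the cell cycle, and genes for DNA replication and mitosis are transcribed mostly in cycling cells, under E2F factors and the MuvB complexes that bind E2F and CHR elements in their promoters. Such genes can change over hours to days after hormone, whereas a treatment of 1 h reaches mainly direct targets. Fulvestrant is a steroidal antagonist under which the receptor protein is degraded. Raloxifene and tamoxifen are nonsteroidal modulators of the receptor that are antagonists in breast cells.

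**Figure D1:**
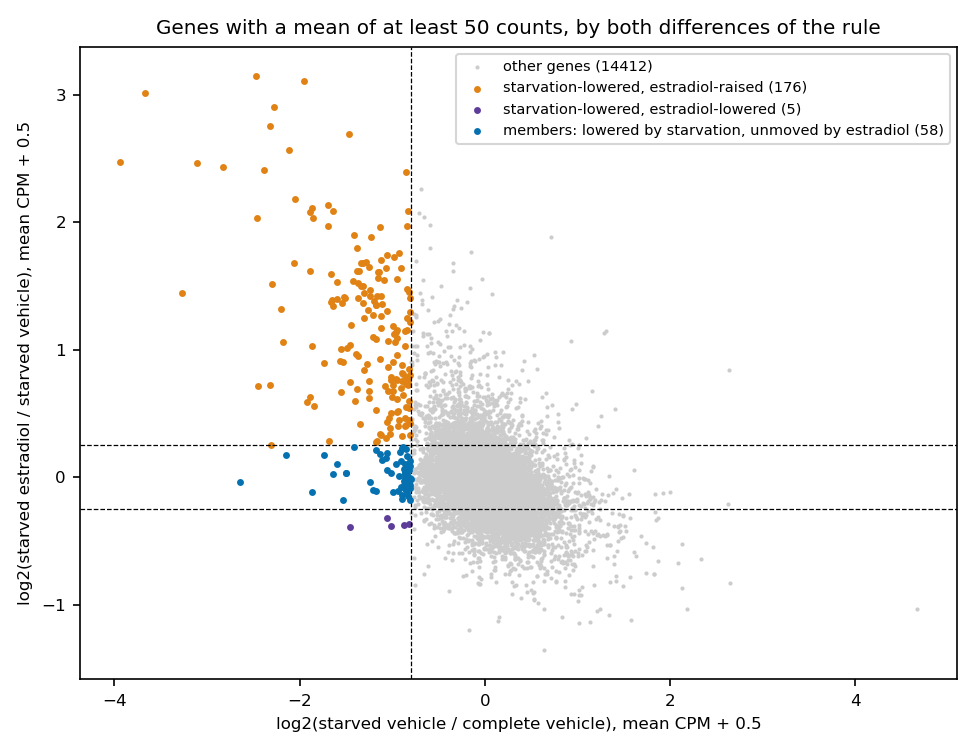
Each point is a gene with a mean of at least 50 counts. The horizontal axis gives log2 of starved vehicle over complete vehicle and the vertical axis log2 of starved estradiol over starved vehicle, both from group means of CPM plus 0.5, and the dashed lines are the bounds of the rule. The 58 members (blue) lie left of -0.8 and between the horizontal bounds, while 176 other starvation-lowered genes (orange) lie above them and 5 (purple) below.

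Relative to complete vehicle, the members' starved vehicle levels ran from 14.6% for WT1 to 57.0% for NCAPG, with a median of 53%. In 21 of 58 members starvation left under 50% of the complete vehicle level. With estradiol the median level was 51.9%, and WT1 was lowest with 14.2%. For each of the 58 members both starved vehicle libraries were below both complete vehicle libraries. The starved estradiol and starved vehicle libraries overlapped in 44 members, both estradiol libraries were higher in 11 and both were lower in 3. These orders were largely set by the rule, which used the same libraries, and their shares over all tested genes were not counted. From CPM, as in the rule, the estradiol difference was above 0 in 34 members and below 0 in 24. In edgeR's fit, which also rescales library sizes, it was below 0 in 17 members, with a median of 0.07 and a maximum of 0.28. By edgeR's quasi-likelihood test 1 member was higher with estradiol at an adjusted p under 0.05, as were 5.04% of all tested genes. A difference within the bound is therefore not a proof of no change.

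The members just inside the starvation bound were ADARB1, PDE4DIPP6 and NCAPG, with log2 differences of -0.807, -0.805 and -0.80. The genes just outside it were ENSG00000267698, BARD1 and TOP2A, with -0.798, -0.798 and -0.793. On the estradiol bound, MCM5, FYB2 and TRIP13 lay just inside with 0.226, 0.233 and 0.24, and WT1-AS, AFF3 and QSOX1 just outside with 0.25, 0.279 and 0.285. The members' mean counts ran from 50.17 for PDE4DIPP6 to 6526 for ERBB4, with a median of 176. The standard deviation of the 2 libraries of a group was, at the median over members, between 5.78% of the mean in tamoxifen and 8.07% in starved estradiol.

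The members were sorted by function into DNA replication and cell division (13 genes), receptors and signalling (12), adhesion, matrix and scaffold (5), transcription and RNA (4), metabolism, transport, secretion and other (11), and non-coding, pseudogene or unnamed IDs (13). These roles were assigned after the members were known. Members that are named below for their role alone were chosen after their values were seen.

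**Figure D2:**
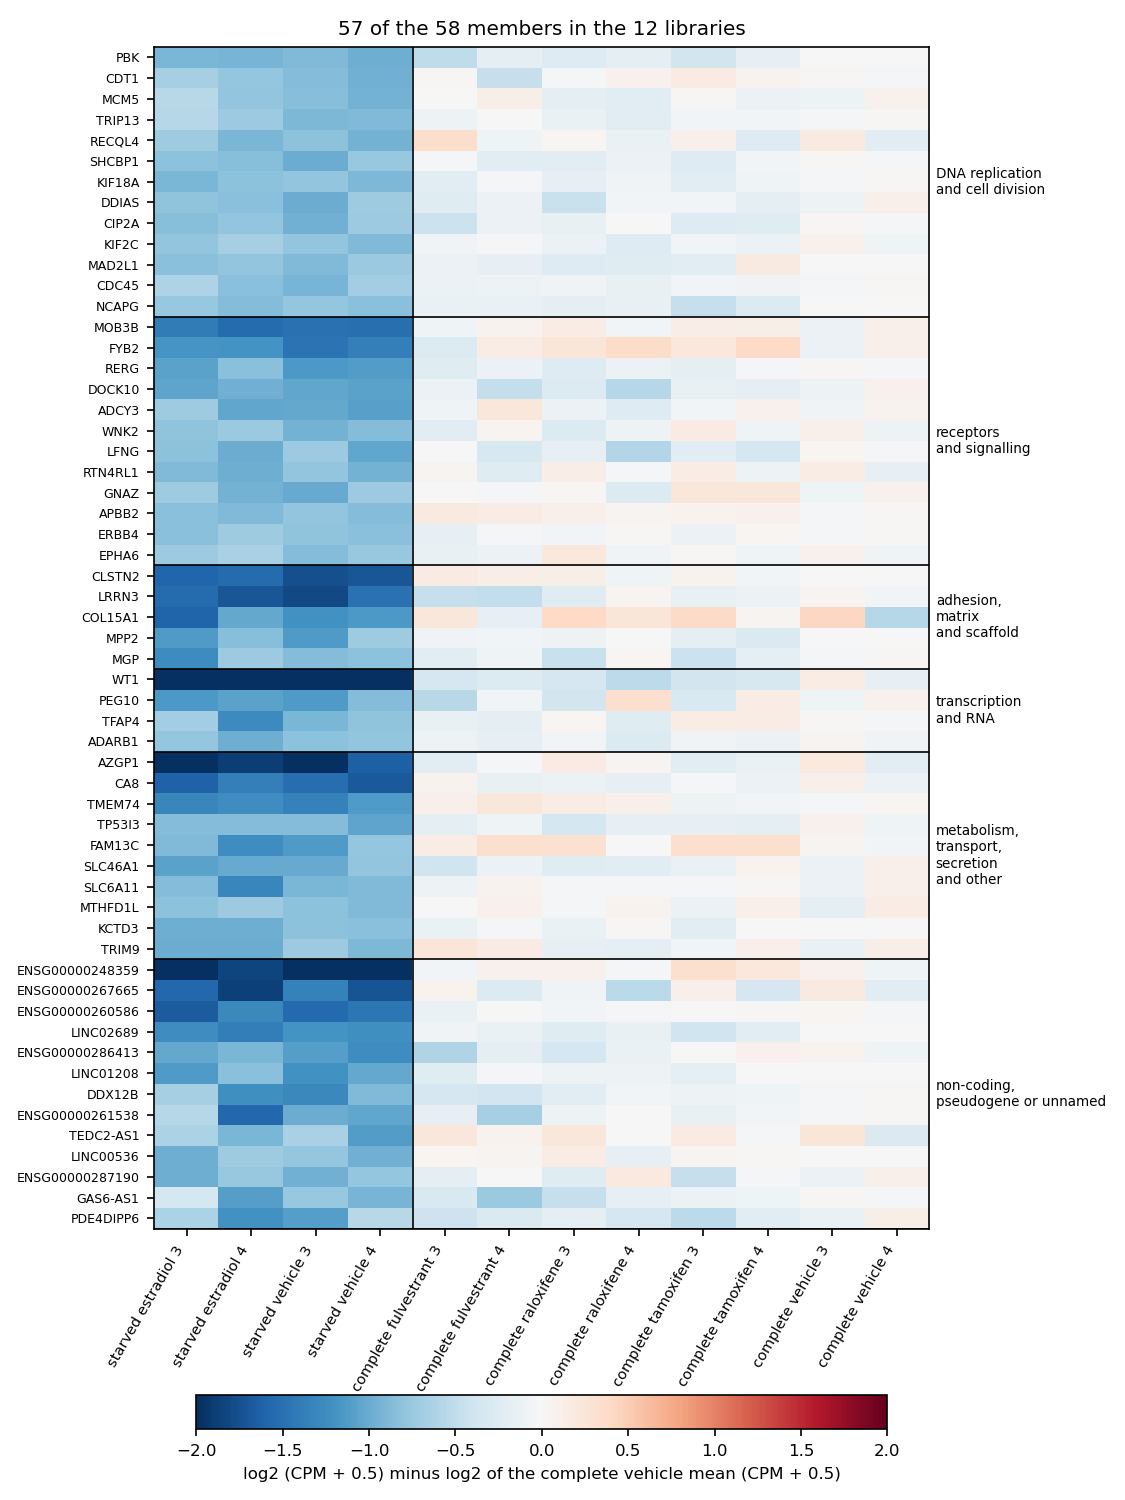
Rows are 57 of the 58 members grouped by role, and columns are the 12 libraries. Colour gives log2 of CPM plus 0.5 minus log2 of the complete vehicle mean plus 0.5, and the vertical line separates the 4 starved from the 8 complete-medium libraries. The median over all 58 members lies between -0.96 and -0.87 in the starved libraries and between -0.12 and 0.00 in the complete-medium libraries.

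The 13 members that act in DNA replication and cell division had a median log2 difference of -0.88 between starved and complete vehicle. In edgeR's fit their estradiol differences, which the rule kept small, ran from 0.01 to 0.28. Thus 0 of the 13 were below 0 in that fit, beside 12251 of 23375 tested genes. In such bulk libraries, fewer cycling cells and less transcription in each cell cannot be told apart. Of the 13, 10 had a promoter sequence in the RefSeq table (assembly GRCh38.p14), and the 250 bases upstream of the start were searched on both strands for a core E2F element (TTTNNCGC) and for the core of the CHR element (TTTGAA). The E2F core stood in 4 of the 10 (40%), in 2 of the 25 other members with a promoter (8.0%) and in 1417 of 13723 tested genes with one (10.3%). The CHR core stood in 2 of the 10 (20%), in 3 of the 25 (12%) and in 13% of the tested genes. The 5 division members with a match are shown, chosen for the match, and capitals mark the matches on either strand. Elements of these kinds are known to time cell cycle genes, but whether these matches do so was not tested.

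NCAPG (chr4:17810729-17810978, + strand): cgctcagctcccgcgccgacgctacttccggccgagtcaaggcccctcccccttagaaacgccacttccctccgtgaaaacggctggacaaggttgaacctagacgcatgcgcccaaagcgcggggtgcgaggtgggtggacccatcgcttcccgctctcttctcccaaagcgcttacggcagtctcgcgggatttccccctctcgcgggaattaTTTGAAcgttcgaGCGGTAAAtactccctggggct
CDT1 (chr16:88803539-88803788, + strand): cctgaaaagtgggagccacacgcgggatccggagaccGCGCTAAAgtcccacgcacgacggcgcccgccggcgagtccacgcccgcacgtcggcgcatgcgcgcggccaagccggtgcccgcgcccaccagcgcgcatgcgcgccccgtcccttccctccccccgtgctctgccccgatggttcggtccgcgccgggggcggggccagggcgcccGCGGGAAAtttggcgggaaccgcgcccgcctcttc
CIP2A (chr3:108589439-108589688, - strand): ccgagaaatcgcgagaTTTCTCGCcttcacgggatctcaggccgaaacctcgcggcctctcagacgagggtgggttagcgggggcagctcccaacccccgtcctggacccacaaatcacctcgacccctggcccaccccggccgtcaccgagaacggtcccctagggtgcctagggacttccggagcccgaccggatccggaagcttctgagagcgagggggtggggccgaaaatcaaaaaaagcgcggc
DDIAS (chr11:82901486-82901735, + strand): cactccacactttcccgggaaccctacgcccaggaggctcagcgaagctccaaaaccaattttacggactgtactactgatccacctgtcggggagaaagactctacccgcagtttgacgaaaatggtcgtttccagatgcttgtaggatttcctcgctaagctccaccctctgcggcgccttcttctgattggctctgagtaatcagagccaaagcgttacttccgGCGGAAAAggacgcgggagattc
KIF18A (chr11:28108157-28108406, - strand): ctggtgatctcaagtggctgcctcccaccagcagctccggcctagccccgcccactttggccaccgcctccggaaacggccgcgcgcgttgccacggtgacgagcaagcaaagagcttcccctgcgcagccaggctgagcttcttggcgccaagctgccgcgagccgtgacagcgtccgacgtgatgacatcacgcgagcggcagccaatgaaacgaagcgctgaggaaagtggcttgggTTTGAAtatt

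NCAPG held both cores next to each other near its start, CDT1 held 2 E2F cores, CIP2A and DDIAS held 1 E2F core each, and KIF18A held a CHR core 10 bases before its start. Over all 35 members with a promoter, E2F cores stood in 6 (17.1%), CHR cores in 5 (14.3%) and a CCAAT box in 13 (37.1%), against 40.2% of tested genes for the CCAAT box. The palindromic estrogen response element (half-sites GGTCA and TGACC, separated by any 3 bases) was in 0 of 35 member promoters and in 0.0583% of tested promoters. The glucocorticoid-type element (half-sites GNACA and TGTNC, with the same spacing) was in 0 of 35 and in 0.277%. A match of letters is a description and not a bound site, and estrogen receptor sites mostly lie outside windows of this size. Median GC content of the window was 63.6% in both the 35 members and the 13723 tested genes.

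CDT1, which loads the MCM helicase at origins, had 18.8 and 17.4 CPM in the starved estradiol libraries, against 16.3 and 15.2 CPM in the starved vehicle libraries. In complete medium it had 30.8 and 21.9 CPM with fulvestrant, 29.4 and 32.0 with raloxifene, 34.0 and 31.7 with tamoxifen, and 30.6 and 29.7 with vehicle. All 8 complete-medium libraries lay above the 4 starved ones, and the lowest of them was fulvestrant library 4.

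MCM5, a subunit of that helicase, had 27.3 and 23.1 CPM with estradiol and 22.2 and 20.8 CPM with vehicle in starved cells. It had 40.4 and 43.7 CPM with fulvestrant, 35.5 and 34.8 with raloxifene, 41.3 and 37.2 with tamoxifen, and 37.7 and 43.2 with complete vehicle. Both estradiol libraries were above both starved vehicle libraries, yet below every complete-medium library. CDC45, which activates the helicase, averaged 38.6 ± 4.09 CPM with estradiol and 36.3 ± 4.23 CPM with vehicle in starved cells (SD, n = 2 each). CDC45 had between 57.6 and 61.7 CPM in the 6 drug libraries and 64.2 ± 1.8 CPM in complete vehicle (SD, n = 2).

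KIF18A, a kinesin that limits chromosome movement at metaphase, was the most transcribed division member by counts. It had 68.3 and 72.9 CPM with estradiol, against 74.7 and 69.1 CPM with vehicle in starved cells. Complete-medium values were 111.3 and 126.1 CPM with fulvestrant, 115.7 and 123.8 with raloxifene, 112.3 and 121.9 with tamoxifen, and 128.0 and 131.5 with vehicle. The starved groups overlapped and every drug library lay below both complete vehicle libraries. NCAPG, a condensin subunit, showed the same order, with 31.9 and 29.6 CPM with estradiol and 31.7 and 30.5 CPM with vehicle in starved cells, between 39.6 and 49.6 CPM in the drug libraries, and 54.9 and 54.2 CPM in complete vehicle.

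The other division members were the mitotic kinase PBK, the spindle checkpoint protein MAD2L1, the ATPase TRIP13 that remodels it, the microtubule-depolymerising kinesin KIF2C, the helicase RECQL4, the phosphatase inhibitor CIP2A, DDIAS and SHCBP1. Their starved vehicle levels were between 51.8% (PBK) and 55.8% (MAD2L1) of complete vehicle. PBK averaged 16.8 ± 0.133 CPM with estradiol and 16.7 ± 0.718 CPM with vehicle in starved cells, against 32.2 ± 0.116 CPM in complete vehicle (SD, n = 2 each).

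Only 4 of the 13 were on the gene lists drawn up for the surrounding pathways, so those lists were read as a whole. Of 38 tested genes for DNA replication and G1/S, 34 were lower and 0 higher in starved than in complete vehicle, with a median log2 difference of -0.53, where 9.67% of all 23375 tested genes were lower and 9.1% higher. Of 41 genes for mitosis and G2/M, 38 were lower and 0 higher, with a median of -0.58, and of 21 genes for homologous recombination and Fanconi repair 20 were lower, with a median of -0.59. The median over all tested genes was 0.01. The members CDT1, MCM5, CDC45 and KIF18A are among these counts, and were chosen on the same contrast.

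With estradiol at 1 h the calls in these lists numbered 1 or 2 each, too few to set apart from the share over all tested genes. In the G1/S list GINS2, a part of the replicative helicase, was higher with estradiol than with starved vehicle by 0.61 ± 0.0994 on the log2 scale (edgeR's quasi-likelihood test, adjusted p = 0.00021) and no gene was lower. In the mitosis list CENPA, the centromeric histone, was higher by 0.55 ± 0.0737 (adjusted p = 1.8e-05) and ASPM, a spindle pole protein, was lower with a difference of -0.25 ± 0.0709 (adjusted p = 0.033). In the repair list RBBP8, which starts DNA end resection, was higher by 1.07 ± 0.0924 (adjusted p = 4.1e-08). These counts of 1 or 2 per list stand beside 5.04% of all tested genes higher and 3.73% lower with estradiol. Without TMM scaling (edgeR's trimmed-mean scaling of library sizes) the estradiol calls over all genes split into 1025 higher and 1213 lower, against 1177 higher and 873 lower with it. The list medians under estradiol were 0.03, -0.02 and 0.03.

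Other growth-related lists did not follow this pattern. Of 34 genes of ribosome biogenesis and MYC targets, 19 were lower in starved vehicle than in complete vehicle and 17 were higher with estradiol than with starved vehicle. Of 32 replication-dependent histone genes, 1 was lower (H3C2, log2 difference -0.41 ± 0.125, adjusted p = 0.023), with a list median of -0.09. The histone genes are transcribed mainly in S phase, and whether the share of cells in S phase changed was not tested. Of 23 genes of cholesterol synthesis and uptake 17 were higher and 0 lower in starved vehicle, with a median of 0.41, and none of them is a member.

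**Figure D3:**
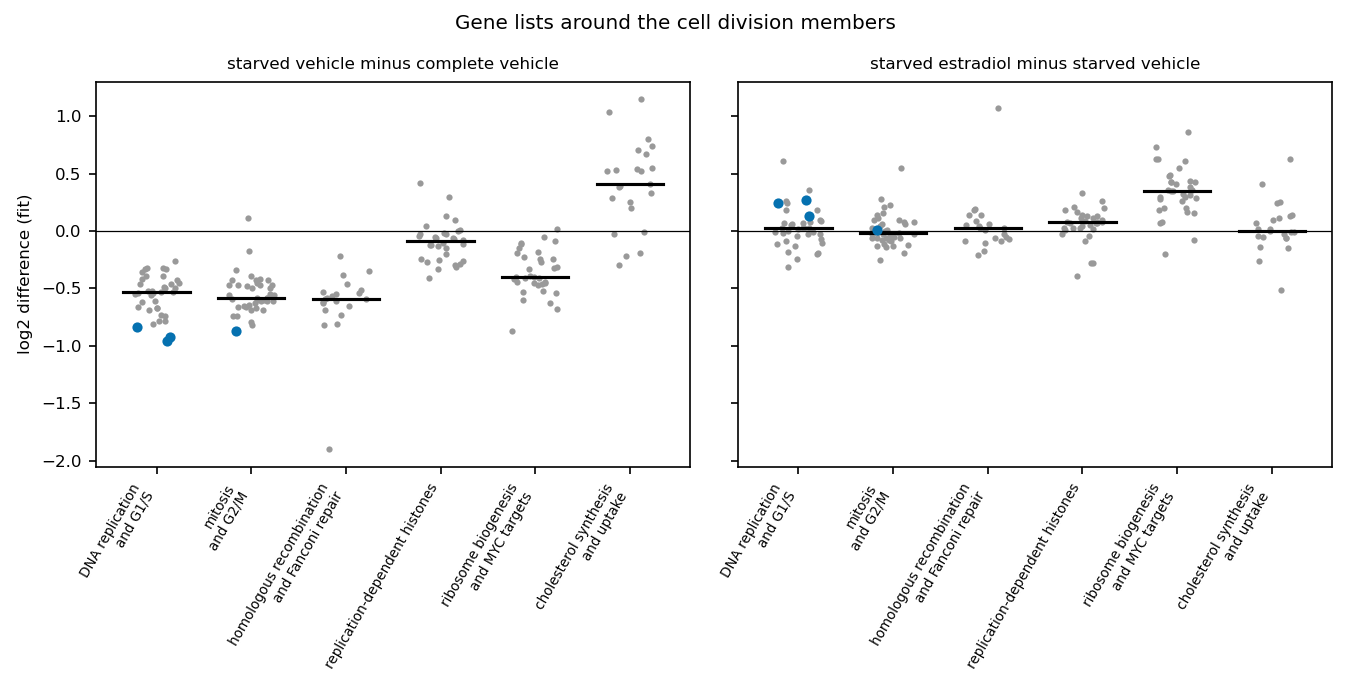
Each point is a tested gene of a list, with members in blue, and black bars are list medians. The left panel gives the edgeR log2 difference of starved vehicle minus complete vehicle and the right panel that of starved estradiol minus starved vehicle. The G1/S, mitosis and repair lists have medians of -0.53, -0.58 and -0.59 on the left and of 0.03, -0.02 and 0.03 on the right, whereas the ribosome and MYC list has medians of -0.40 and 0.35.

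Among the 12 receptor and signalling members, the starvation median was -0.95. ERBB4, a receptor tyrosine kinase for neuregulins, had the highest counts of all members. It had 713.9 and 779.1 CPM with estradiol and 722.5 and 713.1 CPM with vehicle in starved cells. In complete medium it had 1129.3 and 1230.0 CPM with fulvestrant, 1228.4 and 1288.9 with raloxifene, 1169.9 and 1304.3 with tamoxifen, and 1250.7 and 1287.3 with vehicle. The starved groups overlapped, and the highest starved library, at 779.1 CPM, was below the lowest complete-medium library, at 1129.3 CPM. Of 28 tested growth factors, receptors and adaptors, the list that holds ERBB4, 7 were lower and 6 higher in starved than in complete vehicle. EGFR, a related receptor, was among the higher ones, with a log2 difference of 1.03 ± 0.0796 (edgeR's quasi-likelihood test, adjusted p = 6e-09).

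RERG, a Ras-like growth inhibitor named for its regulation by estrogen, had 186.2 and 217.6 CPM with estradiol, against 175.8 and 179.2 CPM with vehicle in starved cells. It had 329.6 and 360.6 CPM with fulvestrant, 324.9 and 361.5 with raloxifene, 342.2 and 383.8 with tamoxifen, and 396.9 and 384.4 with complete vehicle. The 2 estradiol libraries were the higher ones, but stayed at 51.7% of complete vehicle. RERG was the only member among the 38 tested estrogen-induced genes, of which 32 were lower in starved than in complete vehicle and 34 were higher with estradiol than with starved vehicle, and that list was chosen with earlier results of these data known.

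FYB2, an adaptor protein, had 44.8 and 44.1 CPM with estradiol and 36.2 and 39.3 CPM with vehicle in starved cells. In complete medium it had 84.1 and 113.0 CPM with fulvestrant, 120.3 and 130.9 with raloxifene, 117.8 and 134.9 with tamoxifen, and 94.1 and 109.4 with vehicle. Both raloxifene and both tamoxifen libraries were above both vehicle libraries, and the fulvestrant libraries spanned them. APBB2, an adaptor that binds the amyloid precursor protein, had 252.6 ± 5.35 CPM with estradiol and 259.0 ± 10.6 CPM with vehicle in starved cells, against 459.0 ± 11.7 CPM in complete vehicle (SD, n = 2 each). MOB3B, of the MOB family of kinase regulators, was at 34.2% of complete vehicle in starved vehicle. The remaining members of this role included the adenylyl cyclase ADCY3 (47.3%), the Notch-modifying glycosyltransferase LFNG (53.1%), the G protein subunit GNAZ (53.9%) and the ephrin receptor EPHA6 (56.6%).

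The 5 adhesion, matrix and scaffold members had the lowest starvation median of the roles, at -1.33. CLSTN2, a cadherin-like protein of synaptic membranes, had 47.2 and 49.1 CPM with estradiol and 41.7 and 43.6 CPM with vehicle in starved cells. It had 160.1 and 157.4 CPM with fulvestrant, 155.3 and 135.0 with raloxifene, 150.4 and 138.0 with tamoxifen, and 144.5 and 141.7 with complete vehicle. The drug libraries lay on both sides of the vehicle libraries. Its upstream window is shown as a strongly lowered member without an E2F or CHR core.

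CLSTN2 (chr3:139934935-139935184, + strand): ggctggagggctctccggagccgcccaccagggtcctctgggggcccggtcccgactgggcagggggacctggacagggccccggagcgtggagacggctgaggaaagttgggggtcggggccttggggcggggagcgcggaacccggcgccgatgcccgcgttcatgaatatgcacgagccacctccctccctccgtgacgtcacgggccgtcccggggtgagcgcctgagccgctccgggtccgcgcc

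LRRN3, a leucine-rich repeat membrane protein, had 13.5 and 11.8 CPM with estradiol and 11.1 and 13.8 CPM with vehicle in starved cells. It had 29.0 and 28.3 CPM with fulvestrant, 33.7 and 41.8 with raloxifene, 36.0 and 36.8 with tamoxifen, and 41.8 and 38.3 with complete vehicle. Both fulvestrant libraries were below the other 6 complete-medium libraries. COL15A1, a basement membrane collagen, had 4.34 and 4.57 CPM in starved vehicle, against 14.3 and 7.03 CPM in complete vehicle, and the last 2 values are further apart than the starved ones. MGP, the matrix Gla protein that inhibits calcification, was at 55.6% and the scaffold MPP2 at 52.5% of complete vehicle.

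WT1, a zinc finger transcription factor, had the largest starvation difference by the rule. It had 4.40 and 3.76 CPM with estradiol and 3.25 and 5.15 CPM with vehicle in starved cells. It had 22.7 and 23.8 CPM with fulvestrant, 22.7 and 19.8 with raloxifene, 22.3 and 23.1 with tamoxifen, and 32.0 and 25.7 with complete vehicle. All 6 drug libraries were below both vehicle libraries and at least 19.8 CPM, where no starved library passed 5.15 CPM. WT1-AS, which starts beside WT1 on the other strand and overlaps it, was lower in starved vehicle by the same test, with a log2 difference of -2.51 ± 0.203 (edgeR's quasi-likelihood test, adjusted p = 1.2e-08), and lay just outside the estradiol bound. No source used here gives the strand setting of the counts, so reads of the pair cannot be told apart. The other transcription and RNA members were the helix-loop-helix factor TFAP4 (54.2% of complete vehicle in starved vehicle), the RNA-editing enzyme ADARB1 (56.9%) and the retrotransposon-derived PEG10 (49.2%).

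Of the 11 members of metabolism, transport, secretion and other roles, AZGP1, a secreted lipid-mobilising glycoprotein, had 2.43 and 2.87 CPM with estradiol and 2.30 and 3.53 CPM with vehicle in starved cells, against 13.7 and 10.2 CPM in complete vehicle. CA8, a carbonic anhydrase-related protein without catalytic activity, had 27.0 and 32.3 CPM with estradiol and 29.1 and 26.1 CPM with vehicle in starved cells. Its drug libraries ran from 75 to 88.2 CPM with a median of 77.9 CPM, and complete vehicle had 90.5 and 78.1 CPM. In both genes the starved groups overlapped and stayed below every complete-medium library.

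KCTD3, a potassium channel tetramerisation domain protein, had 260.3 and 258.6 CPM with estradiol and 288.7 and 285.7 CPM with vehicle in starved cells, so that both estradiol libraries were the lower ones. TP53I3, a quinone oxidoreductase homologue induced by p53, had 74.0 and 74.2 CPM with estradiol and 73.5 and 64.6 CPM with vehicle in starved cells, against 143.4 and 126.7 CPM in complete vehicle. TMEM74, an autophagy-linked membrane protein, was at 40.2% of complete vehicle in starved vehicle, the folate transporter SLC46A1 at 53% and the mitochondrial folate enzyme MTHFD1L at 55.0%.

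The 13 non-coding, pseudogene or unnamed IDs had a starvation median of -1.14. LINC01208 averaged 56.7 ± 8.26 CPM with estradiol and 51.7 ± 4.62 CPM with vehicle in starved cells, against 112.3 ± 0.749 CPM in complete vehicle (SD, n = 2 each). LINC02689 was at 42.0% of complete vehicle in starved vehicle. ENSG00000248359, an ID without a symbol, had 9.57 and 11.7 CPM with estradiol and 10.3 and 8.39 CPM with vehicle in starved cells, against 45.4 and 40.5 CPM in complete vehicle. DDX12B and PDE4DIPP6 belong to families of near-identical copies, and their counts are uncertain for that reason.

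**Figure D4:**
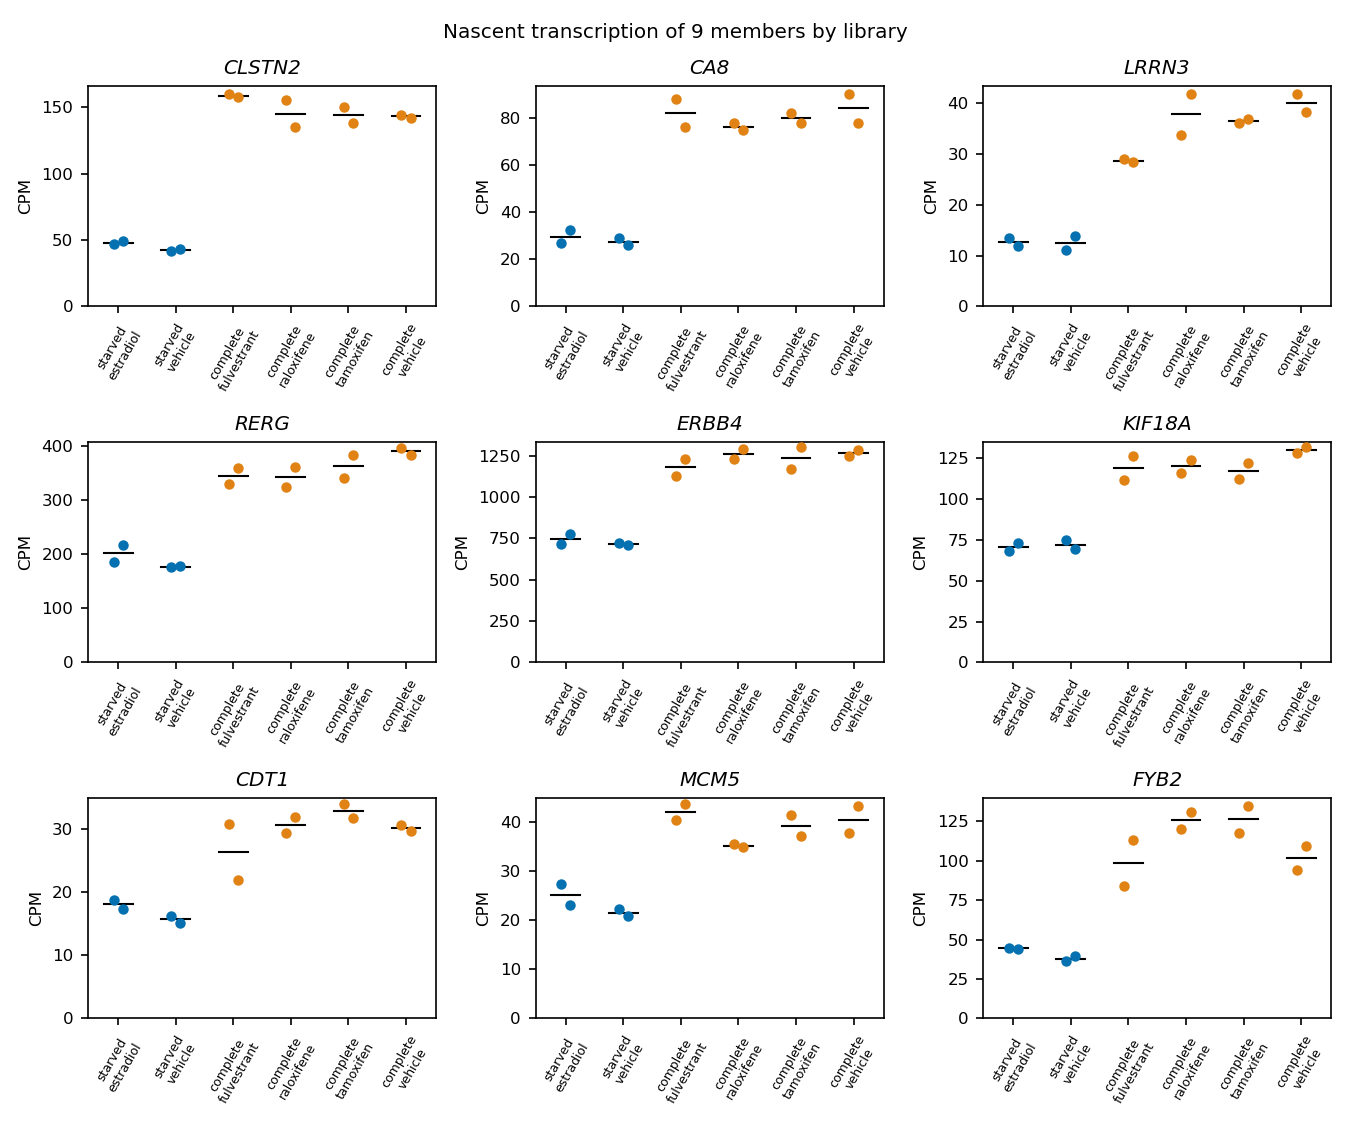
Each panel gives the CPM of 1 member in the 12 libraries, with starved groups in blue, complete-medium groups in orange and black bars at group means. In all 9 members the starved estradiol libraries lie with or just above the starved vehicle libraries and below every complete-medium library.

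The 6 drug libraries were not used by the rule on either difference. In 58 of 58 members all 6 lay above both starved vehicle libraries, as in 16.1% of all tested genes, and the starved vehicle libraries that set the bar were among those the members were chosen on. In 56 of 58 all 8 complete-medium libraries lay above all 4 starved libraries. The exceptions were GAS6-AS1 and ENSG00000261538. The members were chosen on the 4 starved and the complete vehicle libraries, so much of this order was set by the rule. Its share over all tested genes was not counted. GAS6-AS1 had 8.81 CPM in starved estradiol library 3 and 6.63 CPM in fulvestrant library 4, and ENSG00000261538 had 7.29 and 6.81 CPM in the same 2 libraries. Relative to the complete vehicle mean, the median member was at -0.87 and -0.96 (log2) in the estradiol libraries, -0.96 and -0.92 in the starved vehicle libraries, -0.12 and -0.08 with fulvestrant, -0.11 and -0.09 with raloxifene, and -0.06 and -0.05 with tamoxifen. The median over all tested genes stayed between -0.02 and 0.03 in every library.

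Each antagonist was then compared with vehicle in complete medium. These comparisons share the complete vehicle libraries, in which the members had to be high, and they share them with each other. With fulvestrant 1 of 58 members was lower (1.05% of all tested genes) and 0 were higher. The members' median log2 difference was -0.13, against a median of 0.01 over all tested genes. Of the members 47 were below 0 and 12 had an unadjusted p under 0.05, beside 11339 and 1753 of the 23375 tested genes. The member called was LRRN3, with a difference of -0.51 ± 0.121 (edgeR's quasi-likelihood test, adjusted p = 0.041). The call ended without TMM scaling (adjusted p = 0.053), with DESeq2 (0.39) and on leaving out any of the 4 libraries (0.12 to 0.54). In edgeR's test the call held with DESeq2 size factors (adjusted p = 0.039) and without the low-count filter (adjusted p = 0.0072). LRRN3 lies within IMMP2L, on the opposite strand. At the mean of all libraries LRRN3 had 28.0 CPM, against 132.5 CPM for IMMP2L, whose own fulvestrant difference was 0.06 ± 0.0729 (adjusted p = 0.95).

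With raloxifene 0 of 58 members were called (0.479% of tested genes were lower), and the median was -0.12. Of the members 44 were below 0 and 9 had an unadjusted p under 0.05, beside 11390 and 2286 of the 23375 tested genes. DESeq2 also called 0, while 2 were called without the low-count filter. The lowest adjusted p was that of TP53I3, at -0.29 ± 0.0809 (edgeR's quasi-likelihood test, adjusted p = 0.15). With tamoxifen 0 of 58 were called (0.0471% of tested genes were lower), and the median was -0.07. Here 37 members were below 0 and 9 had an unadjusted p under 0.05, beside 11398 and 1530 of the 23375 tested genes. DESeq2 also called 0, while 1 was called without the low-count filter. The lowest adjusted p was that of NCAPG, at -0.37 ± 0.0918 (adjusted p = 0.29). The unadjusted 95% intervals of the fulvestrant differences had a median half-width of 0.254, from 0.101 to 0.519. After adjustment over all tested genes, a difference whose own interval leaves out 0, such as that of NCAPG with tamoxifen, also went without a call.

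The division members had medians of -0.15 with fulvestrant, -0.20 with raloxifene and -0.09 with tamoxifen, without any call. With these drugs 11, 13 and 12 of the 13 were below 0, beside 11339, 11390 and 11398 of the 23375 tested genes. Members had to be high in the complete vehicle libraries, so these signs are not independent of the rule. The G1/S and mitosis lists as a whole had 0 calls in any of these comparisons by edgeR, with fulvestrant medians of -0.03 and -0.06. In the repair list 1 of 21 genes was lower with fulvestrant, at a median of -0.07, and 0 were called with raloxifene or tamoxifen. Across all members, WT1 was among the lower ones with each drug, at -0.35 ± 0.137 with fulvestrant, -0.44 ± 0.140 with raloxifene and -0.36 ± 0.134 with tamoxifen (edgeR's quasi-likelihood test, adjusted p = 0.49, 0.24 and 0.68). ERBB4, with the highest counts, had -0.13 ± 0.0593, -0.02 ± 0.0594 and -0.04 ± 0.0592 with the same drugs (adjusted p = 0.66, 0.94 and 0.94).

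The other starvation-lowered genes were read beside the members. The members' starvation median was -0.94 and their estradiol median 0.07, against -1.21 and 1.20 in the 176 genes that estradiol raised, where these comparisons chose both classes. Fulvestrant lowered 1 of 58 members, against 105 of the 176 estradiol-raised genes, whose median was -0.55. Raloxifene lowered 0 of 58 members, against 54 of the 176, at a median of -0.32, and tamoxifen 0 of 58, against 7 of the 176, at a median of -0.17. None of the 176 was called higher by edgeR with any of the 3 drugs. Whether the classes differ in drug response was not tested as a set, and both were read against the same complete vehicle libraries. In the 5 genes that estradiol lowered further, no drug call was made by edgeR, and their fulvestrant median was 0.08.

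**Figure D5:**
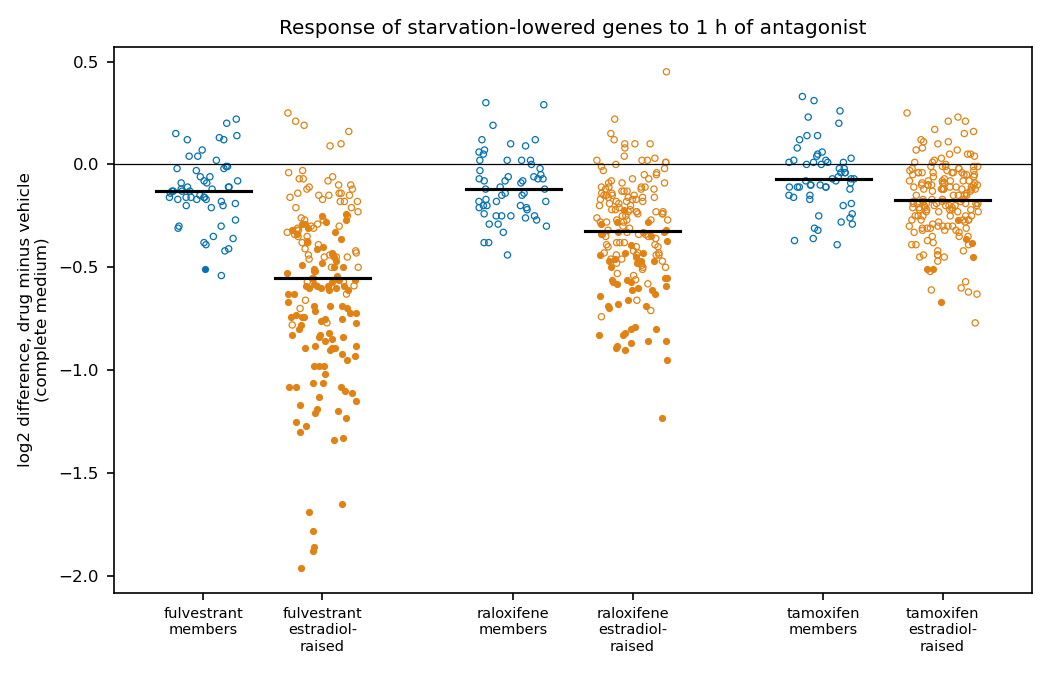
Each point is a starvation-lowered gene, with its edgeR log2 difference between a drug and vehicle in complete medium. For each drug the members (blue) stand left of the estradiol-raised genes (orange). Filled points passed an adjusted p of 0.05 and black bars are medians, which are -0.13, -0.12 and -0.07 for members and -0.55, -0.32 and -0.17 for estradiol-raised genes.

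The 3 antagonists were compared with each other at their shared dose of 100 nM and time of 1 h, in 3 pairs that did not use the libraries behind the rule's differences. P-values were adjusted over all tested genes within each pair. Between fulvestrant and raloxifene 0 of 58 members were called (0.103% of all tested genes were). An unadjusted p under 0.05 was found for 5 members and for 1146 of the 23375 tested genes. Differences ran from -0.37 for LRRN3 to 0.37 for TRIM9, a ubiquitin ligase, with a median of -0.01. Between fulvestrant and tamoxifen 0 of 58 were called (0.462% of tested genes were), and 8 had an unadjusted p under 0.05 (1187 of 23375 tested genes did). These differences ran from -0.43 to 0.23 with a median of -0.05. Between raloxifene and tamoxifen 0 of 58 were called (0.00428% of tested genes were), and 3 had an unadjusted p under 0.05 (1061 of 23375 tested genes did). These differences ran from -0.32 to 0.30 with a median of -0.04. DESeq2 called 0 members in each of the 3 pairs, and without the low-count filter FYB2 was called in both pairs with fulvestrant.

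The member closest to a call between drugs was FYB2. Its difference of fulvestrant minus tamoxifen was -0.38 ± 0.107 on the log2 scale (95% interval -0.60 to -0.15, edgeR's quasi-likelihood test, adjusted p = 0.25) and that of fulvestrant minus raloxifene was -0.35 ± 0.110 (-0.58 to -0.12, adjusted p = 0.76). Without fulvestrant library 4 the difference from tamoxifen was -0.61 and passed (adjusted p = 0.011), with the lone fulvestrant library assumed to vary like the other groups. The unadjusted intervals of members between fulvestrant and raloxifene had a median half-width of 0.26, so differences below about that size were not excluded. Among the estradiol-raised genes, fulvestrant was lower than raloxifene in 22 of 176, lower than tamoxifen in 66, and raloxifene lower than tamoxifen in 1.

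By position, 51 of 58 members were in the RefSeq table (GRCh38.p14), on 18 chromosomes, and 45 of these were protein-coding. Coding members had a median length of 54.5 kb and 40% were over 100 kb, close to the 52.4 kb and 36.2% of estradiol-raised genes. All tested coding genes had 35 kb and 22.2%. Members and estradiol-raised genes had to reach the rule's minimum mean count, which the tested genes did not. Lengths were not compared among genes that reach this minimum, so how far it sets the contrast with all tested genes was not tested. ERBB4 (1163 kb), EPHA6 and CLSTN2 (642.2 kb) are among the long members. Per kb of gene, complete vehicle levels ran from 0.0444 CPM per kb for EPHA6 to 18.2 CPM per kb for TP53I3, with a median of 1.09 CPM per kb, and starved vehicle levels from 0.0252 for EPHA6 to 9.47 CPM per kb for MGP, with a median of 0.502 CPM per kb. ERBB4, the highest by count, stood at the median with 1.09 CPM per kb in complete vehicle.

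On chromosome 12, MGP and RERG lay 221.9 kb apart, and on chromosome 2, TP53I3 and ADCY3 lay 734.3 kb apart. Genes between them differed in direction. ERP27, between MGP and RERG, was higher in starved than in complete vehicle by 1.20 ± 0.247 (edgeR's quasi-likelihood test, adjusted p = 0.0013) and lower with estradiol than with starved vehicle, with a difference of -1.13 ± 0.241 (adjusted p = 0.0033). ARHGDIB, in the same interval, had a starvation difference of -0.98 ± 0.383 (adjusted p = 0.084). Between TP53I3 and ADCY3, NCOA1, a coactivator of nuclear receptors, had a starvation difference of -0.08 ± 0.0659 (adjusted p = 0.50) and ITSN2 one of 0.01 ± 0.0802 (adjusted p = 0.95), while PFN4 was lower with -0.54 ± 0.151 (adjusted p = 0.015).

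Of the 51 placed members 25 overlapped another RefSeq gene, and in 12 the overlapping gene had more than 10% of the member's own CPM, so part of those members' counts may belong to the partner. GAS6-AS1 had 8.66 CPM, against 48.4 CPM for its partner GAS6, a ligand of TAM receptors. GAS6 was lower in starved vehicle by the fit (log2 difference -1.20 ± 0.107) and higher with estradiol by 1.48 ± 0.103 (edgeR's quasi-likelihood test, adjusted p = 5.2e-08 and 1.4e-09). For TP53I3, SLC46A1 and APBB2 the partners went without the fall of the member, with starvation differences of 0.18 for FAM228B, -0.10 for SARM1 and 0.30 for NSUN7. CENPO beside ADCY3 and ESCO2 beside PBK, both genes of chromosome segregation, had -0.54 each, where the members had -1.10 and -0.97.

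Lists of other hormone pathways held few or no members. Of 31 progestin, androgen and glucocorticoid targets 11 were higher and 4 lower in starved than in complete vehicle, with a median of 0.24, and 0 were members. Of 14 retinoid, vitamin D and thyroid hormone targets 2 were higher and 4 lower, with a median of -0.30, and 0 were members. Over all tested genes 9.1% were higher and 9.67% lower. With estradiol against starved vehicle, 6 of the 31 were higher and 2 lower (median 0.06), and 6 of the 14 were higher and 0 lower (median 0.54). The shares over all tested genes were 5.04% higher and 3.73% lower. In all, 6 members stood on any of the 25 lists and 52 on none.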

How the data were processed

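Per the labels, PRO-seq libraries of T47D cells were made in 6 groups of 2. The authors deposited a table of whole-number counts by Ensembl ID, with no normalization. The submitters' processing notes name genome build hg38 and the tools Bowtie2 2.4.4, SAMtools 1.9 and cutadapt 1.8.1. No source used here names the counting tool, its annotation, its strand setting or which bases of a gene were counted. Of 60605 IDs, 142 had no symbol in the reference list (0.281% of counts), and 1195 that shared a symbol with a stronger ID were left out of the fits (0.0741%). Totals ran from 3682311 to 7856803 counts per library. No 2 libraries of a group agreed within sampling noise (chi-square per gene 1.2 to 2.36).

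Counts were fitted in R 4.3.3 with edgeR 4.0.16: filterByExpr (23375 genes, with all 58 members among them), TMM scaling, 1 model with the 6 groups over all 12 libraries, and edgeR's quasi-likelihood test with Benjamini-Hochberg adjustment over all tested genes at 0.05. Errors are standard errors of the fit unless given as SD. DESeq2 1.42.0, other scalings, no low-count filter, other bounds and minimum counts of the rule, a block on the library number and leaving out each library were alternatives. Positions and promoters came from RefSeq (GRCh38.p14) by symbol. Lists of other pathways were counted and are named where their result is given.

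The members, roles and lists were chosen with earlier results of these data known. Genes named were the 12 lowest in starvation, the 10 with the highest counts, members on lists, called members and genes beside the bounds, and any others were chosen after their values were seen. The values of 1 member are not reported here on their own. Drug comparisons with vehicle are not independent of the rule, since the complete vehicle libraries entered it.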

Additional observations from a re-analysis of the deposited data

How the results depend on the processing

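The 58 members became 61 with TMM-scaled CPM in the rule, 63 and 49 with pseudocounts of 0.1 and 2, 78 and 45 with minimum mean counts of 20 and 100, and 43 with an estradiol bound of 0.15. A starvation bound of -1 left 20. Leaving out 1 library gave 55 to 65 members, of which 39 to 49 were among the 58, so a share of the genes near the bounds depends on single libraries. The counts of lowered genes in the G1/S, mitosis and repair lists stayed within 1.5 times under every alternative run (chosen after seeing the data).

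Members called with fulvestrant against vehicle numbered 1, and 0 without TMM scaling, 0 with DESeq2 and 0 to 0 on leaving out a library. Members called with raloxifene against vehicle numbered 0, and 2 without the low-count filter (TP53I3 and RERG) and 0 to 1 on leaving out a library (TP53I3 without raloxifene library 4, adjusted p = 0.039, in edgeR's test). With tamoxifen against vehicle the 0 became 1 without the filter (FYB2). Between fulvestrant and raloxifene the 0 became 1 without the filter (FYB2), and between fulvestrant and tamoxifen 1 without the filter and 0 to 1 on leaving out a library (FYB2). LRRN3's fulvestrant difference was -0.49 without TMM scaling, and -0.56 to -0.44 on leaving out a library. Over all genes, 4387 were called between starved and complete vehicle, 2381 with DESeq2 and 2558 to 2872 on leaving out a library. With estradiol 2050 were called, 1121 with DESeq2 and 1170 to 1321 on leaving out a library. For these changes the cause was not tested, beyond the fewer libraries of the last.

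Libraries of all groups carry the numbers 3 and 4, without a statement that a number marks a shared day or culture. Deviations of same-numbered libraries correlated over 0.1 in 14 of 15 pairs of groups (0.0753 to 0.412, median 0.183, across 16494 genes). The correlation was above 0 in every pair of groups, which is a hint from the data and not the design. With the number as a replicate block, members called were 2 with fulvestrant (LRRN3 and RERG), 3 with raloxifene (TP53I3, RERG and FYB2) and 2 with tamoxifen (NCAPG and FYB2) against vehicle, 1 between fulvestrant and raloxifene and 1 between fulvestrant and tamoxifen (FYB2 in both, edgeR's adjusted p = 0.0015 and 0.00024), and 0 between raloxifene and tamoxifen. Members had a median of 176 counts and each group 2 libraries, and how far each sets the width of the drug intervals was not tested.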
